A study of Mus musculus with 12 samples.

Results

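The clock output genes described here are 9 protein-coding genes that the circadian clock drives in liver: Dbp, Tef and Hlf, Nfil3, Ciart, Bhlhe40, Bhlhe41, Usp2 and Wee1. They were taken by gene symbol from the deposited count table, where all 9 were found among 15140 genes. Earlier results of these data were known when the 9 were chosen, so their share of calls is a description. RNA came from livers of male mice that began a high-fat diet (60% of calories from fat) at 7 to 8 weeks of age and ate it for 3 months. The 6 KO libraries were from mice in which prohibitin 1, a scaffold protein of the inner mitochondrial membrane, was deleted in adipocytes (Phb1adipo-/-), and the 6 WT libraries were from wild-type mice on the same diet. The labels do not name the promoter that drove the deletion, the time of day at which livers were taken or the animal behind each library, and p-values therefore speak only for the spread among libraries, which may be technical. In whole liver, fewer cells of a type and less RNA per cell cannot be told apart.

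In each cell the clock is a feedback loop in which the activators BMAL1 (gene Arntl) and CLOCK switch on their own repressors, the PER and CRY proteins. The loop reaches other genes partly through output factors. DBP, TEF and HLF form the PAR bZIP family, which activates genes through a DNA element called the D-box, and NFIL3 (also called E4BP4) represses through the same element, with peak levels at the opposite time of day. In liver, PAR bZIP factors are known for driving daily rhythms of detoxification and lipid genes. CIART (also called CHRONO), BHLHE40 (DEC1) and BHLHE41 (DEC2) are repressors that act back on BMAL1 and CLOCK, while Usp2, a deubiquitinase gene, and Wee1, a cell cycle kinase gene, are direct targets of the clock.

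The stretches of DNA ahead of the transcription starts of Ciart, Tef and Bhlhe41 are shown because each holds the E-box CACGTG, the element bound by BMAL1 and CLOCK, and that of Nfil3 because it holds the core of the element bound by ROR activators and REV-ERB repressors. All are from RefSeq (GRCm38.p6), 5′ to 3′ on the strand of the gene, with the matched element in capitals. Those of Nfil3 and the upstream Tef start lie in an annotated exon and are limited to 30 bases.
Ciart, chr3:95882252-95882478, minus strand: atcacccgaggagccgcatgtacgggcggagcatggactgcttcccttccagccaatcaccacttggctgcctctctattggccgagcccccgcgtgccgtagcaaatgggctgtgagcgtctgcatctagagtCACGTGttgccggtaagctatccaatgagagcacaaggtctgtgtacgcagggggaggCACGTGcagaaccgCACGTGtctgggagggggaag
Tef, downstream start, chr15:81811164-81811413, plus strand: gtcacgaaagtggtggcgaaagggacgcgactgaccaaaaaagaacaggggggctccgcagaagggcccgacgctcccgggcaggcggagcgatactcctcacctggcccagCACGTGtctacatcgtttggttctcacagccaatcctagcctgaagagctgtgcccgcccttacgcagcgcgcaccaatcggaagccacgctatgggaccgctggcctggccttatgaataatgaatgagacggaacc
Tef, upstream start, chr15:81802534-81802563, plus strand: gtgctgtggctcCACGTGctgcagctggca
Bhlhe41, chr6:145865559-145865670, minus strand: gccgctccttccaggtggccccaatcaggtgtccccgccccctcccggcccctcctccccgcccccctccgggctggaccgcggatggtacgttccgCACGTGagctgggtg
Nfil3, chr13:52981040-52981069, minus strand: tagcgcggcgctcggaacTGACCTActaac

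Windows from 250 bases before to 50 bases after a start were given for 7 of the 9 genes, 8 windows in all because Tef has more than 1 start. Both strands were searched for each motif, and no motif overlapped another. The E-box stood in 4 of the 8 windows, against 7.15% of 32851 such windows of all genes. Ciart held 3 copies, beginning 116, 58 and 44 bases before the start, and each Tef window and that of Bhlhe41 held 1. The core TAGGTCA stood in 1 window, that of Nfil3, on the strand opposite to the gene (printed as TGACCTA) and beginning 12 bases before the start, against 2.61% of all windows. The D-box letters TTATGTAA or TTACGTAA stood in 0 of the 8 windows, against 1.06% of all. These are matches of letters in short windows, not measured binding.

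Tef, Hlf and Wee1 fell in KO liver, and none of the 9 genes rose. They were 3 of 9, or 33.3%, while 2.64% of all 15000 genes tested were called in either direction, 1.49% lower and 1.15% higher (edgeR, quasi-likelihood F test, Benjamini-Hochberg adjustment over all genes tested, threshold 0.05). Of the 9 fold changes 8 were negative, with a median log2 fold change of -1.30 against 0.00311 over all genes tested. For none of the 9 genes did the groups separate fully, although they did for 2.53% of all genes. WT library 6 lay inside the KO range for 9 of 9, and the share of all genes for which it did is not given here. Other WT libraries also lay inside that range: numbers 1, 2, 4 and 5 for Nfil3, Bhlhe40 and Bhlhe41, and number 1 for Hlf. Against the other 5 WT libraries, all KO libraries lay lower for Dbp, Tef, Ciart, Usp2 and Wee1 (2.56% of all genes), while the groups still overlapped for Hlf, Nfil3, Bhlhe40 and Bhlhe41. WT library 6 was set aside for its values here, being the lowest WT library for 7 of the 9 genes. The separation without it is therefore a description, and the 2.56% does not allow for that choice. Macrophage markers were also lower in KO: 10 of 10 had negative fold changes, and 3 of those fell (1.49% of all genes fell). Tested markers of T and NK cells, B cells, sinusoidal endothelium and skeletal muscle had only negative fold changes as well. Without WT library 6, 6 of the 9 genes were called lower (4.66% of all genes). Without KO library 6 or WT library 2, 4 or 5 none was called (edgeR, 0.572%, 0.306%, 0.166% and 0.592% of all genes). The other 7 leave-outs gave 1 without KO library 1 (2.1% of all genes), 2 (1.56%) or WT library 3 (2.08%), 2 without KO library 4 (2.64%) or 5 (1.86%), 3 without WT library 1 (2.05%) and 5 without KO library 3 (2.44%). In each leave-out without a call, 7 of 9 had an unadjusted edgeR p under 0.05. Over all genes, 2616 of 15038 did without KO library 6. Without WT library 2, 4 or 5, 2613 of 15025, 2519 of 15031 and 2552 of 15033 did.

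**Figure D1:**
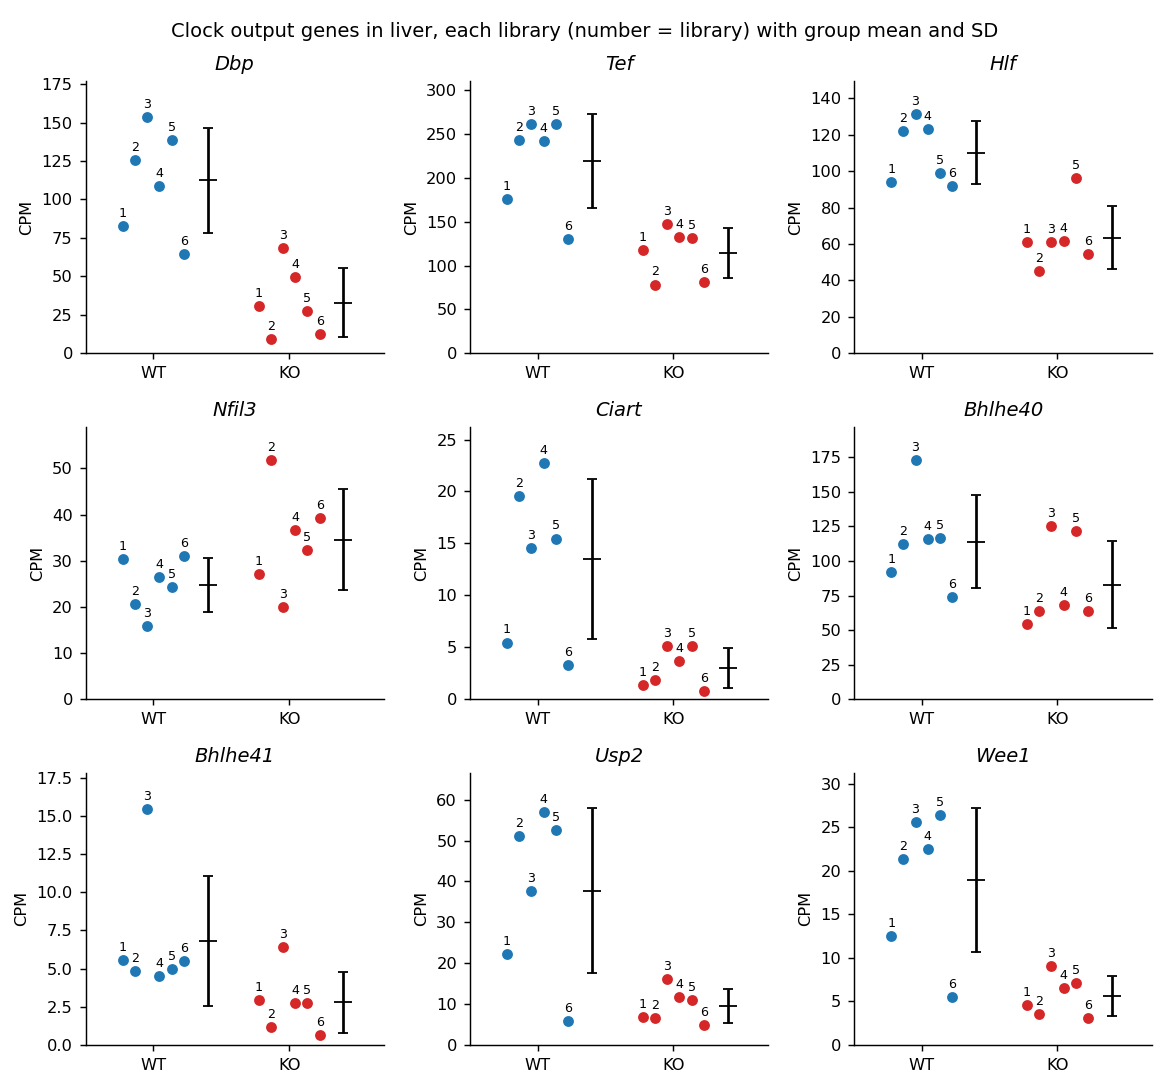
Read counts scaled to library size (CPM, linear axes from 0) of the 9 clock output genes in each WT (blue) and KO (red) library, numbered as in the labels, with the group mean and SD in black (n = 6 each). WT library 6 sits among the KO libraries in all 9 panels, and Nfil3 is the gene with the higher mean in KO. For Nfil3, Bhlhe40, Bhlhe41 and Hlf it is not the only WT library inside the KO range.

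Dbp (chromosome 7, 45705088 to 45710203, GRCm38) encodes a PAR bZIP factor with a strong daily rhythm in liver. It ran from 64.8 through a median of 117 to 154 CPM (read counts scaled to library size by TMM) in WT and from 9.07 through 29.2 to 68.3 CPM in KO. The groups touched only where KO library 3 (68.3 CPM) passed WT library 6 (64.8 CPM), and the other 5 KO libraries were lower than any WT library. The fitted level was 3.41-fold higher in WT (log2 fold change -1.77 ± 0.45 SE, 95% interval -2.75 to -0.79, n = 6 per group), yet the test across all genes did not pass (edgeR, Benjamini-Hochberg adjusted p = 0.0609). An exact two-sided permutation test of log2 CPM for Dbp alone gave p = 0.00433, unadjusted. The 9 genes were chosen with earlier results known, so such single-gene p-values, here and below, are descriptions. By edgeR, 3184 of 15000 genes had an unadjusted p under 0.05. Dbp passed without KO library 3 (edgeR adjusted p = 0.0343) or WT library 6 (0.0453). With all 12 libraries it passed with DESeq2 (adjusted p = 0.00297), limma-voom (0.0404, and 0.0263 with library weights) and the stricter filter of 1 CPM in 6 libraries (edgeR, 0.0488). Dbp and the lipid kinase gene Sphk2 overlap on opposite strands over 539 exon bases, or 18.0% of the Dbp exons, and reads there may be uncertain. For Sphk2 the log2 fold change was 0.29 ± 0.12 (SE, edgeR adjusted p = 0.188), opposite in sign to Dbp.

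Tef (chromosome 15, 81802421 to 81826863) fell from 219 ± 53.7 to 115 ± 28.6 CPM (SD, n = 6 each), a 1.91-fold difference. WT ran from 130.1 through 242 to 261 CPM and KO from 78.4 through 124 to 148 CPM. WT libraries 2 to 5 stood close together at 242 to 261 CPM, WT library 1 stood at 176 CPM, and WT library 6 lay among the KO libraries. The log2 fold change was -0.93 ± 0.20 (SE, edgeR adjusted p = 0.0326). Leaving out KO library 1 (adjusted p = 0.0513), 2 (0.0546) or 6 (0.0713) ended this call, as did leaving out WT library 2 (0.0779), 3 (0.0544), 4 (0.0796) or 5 (0.0740), while the log2 fold change stayed between -1.04 and -0.84.

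Hlf (chromosome 11, 90336536 to 90390895), the third PAR bZIP gene, fell from 110.2 ± 17.3 to 63.4 ± 17.3 CPM (SD, n = 6 each), or 1.74-fold. It ran from 91.6 through 110.4 to 132 CPM in WT and from 45.4 through 61.1 to 96.3 CPM in KO. A single KO library, number 5 at 96.3 CPM, reached the WT range, and the next highest KO library stood at 61.9 CPM. The log2 fold change was -0.80 ± 0.16 (SE, edgeR adjusted p = 0.0266). Leaving out KO library 6 (adjusted p = 0.0621) or WT library 2 (0.0654), 4 (0.0669) or 5 (0.0525) ended the call.

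Nfil3 (chromosome 13, 52967209 to 52981073), which encodes the D-box repressor, was the 1 gene of the 9 with a higher mean in KO. It ran from 15.8 through 25.4 to 31.0 CPM in WT and from 20.04 through 34.5 to 51.8 CPM in KO. KO libraries 2, 4, 5 and 6 lay above all WT libraries, while KO libraries 1 and 3 lay inside the WT range. The log2 fold change of 0.48 ± 0.22 (SE, 95% interval 0.01 to 0.95) did not pass (edgeR adjusted p = 0.223), nor did an exact permutation test of Nfil3 alone (p = 0.0866, unadjusted).

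Among the repressors that act back on the clock, Ciart (chromosome 3, 95878503 to 95882251) had the largest fold difference of the 9 genes. It ran from 3.31 through 15.03 to 22.7 CPM in WT and from 0.826 through 2.78 to 5.10 CPM in KO. WT libraries 2 to 5 stood at 14.6 to 22.7 CPM, whereas WT libraries 1 and 6 (5.45 and 3.31 CPM) stood next to KO libraries 3 and 5 (5.07 and 5.10 CPM). The fitted level was 4.53-fold higher in WT (log2 fold change -2.18 ± 0.55 SE), and this did not pass over all genes (edgeR adjusted p = 0.0586, and 0.0255 without WT library 6). An exact permutation test of Ciart alone gave p = 0.0152, unadjusted.

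The paired repressor genes Bhlhe40 and Bhlhe41, both on chromosome 6 (108660629 to 108666925 and 145858243 to 145865558), did not pass the test. Bhlhe40 ran from 73.9 through 114 to 173 CPM in WT and from 54.5 through 66.2 to 125 CPM in KO, and KO libraries 1, 2, 4 and 6 were below the WT range. Its log2 fold change was -0.46 ± 0.25 (SE, 95% interval -1.004 to 0.08, edgeR adjusted p = 0.312). Bhlhe41 ran from 4.53 through 5.25 to 15.5 CPM in WT and from 0.649 through 2.76 to 6.39 CPM in KO, with KO library 3 alone reaching the WT range. Of its exon bases, 19.05% are shared with Gm43909 on the other strand, where reads are uncertain. Its log2 fold change was -1.30 ± 0.49 (SE, edgeR adjusted p = 0.156). WT library 3 held the highest value of both genes, and without it the log2 fold changes were -0.30 and -0.87 (edgeR adjusted p = 0.490 and 0.254).

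Usp2 (chromosome 9, 44067021 to 44095627) encodes a deubiquitinase whose substrates include clock proteins. It ran from 5.81 through 44.5 to 57.0 CPM in WT and from 4.78 through 8.85 to 16.1 CPM in KO. WT library 6 (5.81 CPM) was lower than 5 of the 6 KO libraries, while WT library 1 (22.3 CPM) and WT libraries 2 to 5 (37.7 to 57.0 CPM) all exceeded every KO library. The fitted level was 3.99-fold higher in WT (log2 fold change -1.997 ± 0.48 SE), which did not pass (edgeR adjusted p = 0.0527). Usp2 passed without WT library 6 (adjusted p = 0.0100) and without KO library 3 (0.0497). An exact permutation test of Usp2 alone gave p = 0.0173, unadjusted.

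Wee1 (chromosome 7, 110122046 to 110143286) encodes the kinase that holds back mitosis by phosphorylating CDK1. It fell from 19.0 ± 8.24 to 5.63 ± 2.29 CPM (SD, n = 6 each), or 3.37-fold. WT ran from 5.51 through 21.9 to 26.4 CPM and KO from 3.07 through 5.55 to 9.01 CPM. WT library 6, at 5.51 CPM, was the only WT library inside the KO range. The log2 fold change was -1.75 ± 0.38 (SE, edgeR adjusted p = 0.0350). Leaving out KO library 1 (adjusted p = 0.0602), 2 (0.0678), 4 (0.0513), 5 (0.0522) or 6 (0.0787) ended the call, as did WT library 2 (0.0793), 3 (0.0556), 4 (0.0814) or 5 (0.0768) and the use of limma-voom (0.0620).

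**Figure D2:**
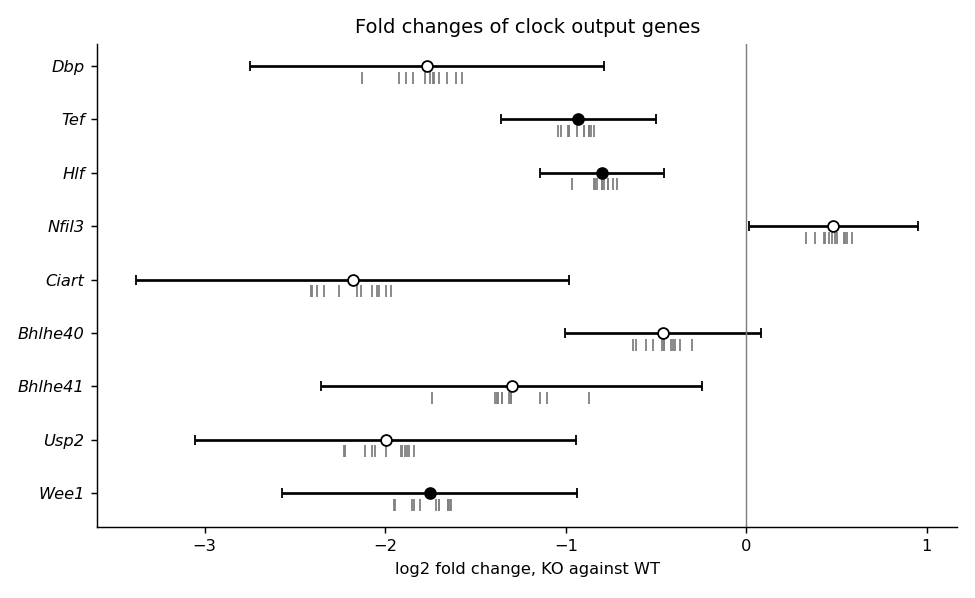
Log2 fold change of KO against WT (horizontal axis) for the 9 clock output genes, with 95% intervals as bars, filled circles where the edgeR adjusted p was under 0.05, and grey ticks for the value with each of the 12 libraries left out. Tef (-0.93), Hlf (-0.80) and Wee1 (-1.75) are filled, and each gene's ticks stay on 1 side of 0.

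The fold differences of Ciart, Usp2, Dbp and Wee1 were larger than those of Tef and Hlf, yet Tef and Hlf were called and Ciart, Usp2 and Dbp were not. The libraries of 1 group spread more for the former. The highest WT library exceeded the lowest by 9.81-fold for Usp2, 6.87-fold for Ciart, 4.80-fold for Wee1 and 2.37-fold for Dbp, compared with 2.01-fold for Tef and 1.44-fold for Hlf. In KO the same ratio was 7.52-fold for Dbp and 1.88-fold for Tef. The coefficient of variation between libraries that edgeR fitted was above the trend for genes of like abundance in 9 of 9 genes, as in 24.9% of all genes tested.

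The number called also differed by test. In the authors' deposited table, all but Nfil3 and Bhlhe40, that is 7 of the 9 genes, had adjusted p-values below 0.05, as did 5.58% of all genes, and those of Nfil3 and Bhlhe40 were 0.09996 and 0.258. DESeq2 on the same counts called 7 (8.47% of all genes), and requiring at least 1 CPM in 6 libraries before the edgeR test gave 6 (3.36%). Limma-voom called 3 (Tef, Hlf and Dbp, 2.51%), or 4 with library weights (those and Wee1, 5.93%), and edgeR called 3 with RLE scaling (2.61%), total counts only (1.71%), no filter (2.64%) or 1 surrogate variable (3.76%). In none of these settings was any of the 9 genes called higher.

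Compared per kilobase of exon, Dbp was the most abundant of the 9 transcripts in WT, at 37.5 ± 11.3 CPM per kilobase (SD, n = 6). It was followed by Tef (27.8), Bhlhe40 (24.2), Hlf (16.5), Nfil3 (12.2), Usp2 (7.84), Ciart (5.98), Wee1 (5.55) and Bhlhe41 (1.01 CPM per kilobase). The ranges of all neighbours in this order overlapped, although Dbp exceeded Tef in 6 of 6 WT libraries. In KO, Bhlhe40 (17.6) and Nfil3 (17.1) came first, followed by Tef (14.6), Dbp (11.0) and Hlf (9.49), and then, below a gap, by Usp2 (1.97), Wee1 (1.65), Ciart (1.32) and Bhlhe41 (0.414 CPM per kilobase). Of these neighbours in KO only Hlf and Usp2 had ranges that did not overlap. The Dbp level per kilobase exceeded that of its opponent Nfil3 in 6 of 6 WT libraries, by 1.42-fold to 6.57-fold, and in 1 of 6 KO libraries, number 3 (2.31-fold).

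Libraries of the same genotype also differed among themselves in clock output. Each of the other 8 was compared with Dbp on log2 CPM within WT and within KO, 16 relations in all (Pearson's r and Spearman's rho, exact two-sided permutation over pairings, n = 6, Benjamini-Hochberg over the 16). Dbp and Tef varied together in both groups, with r = 0.963 in WT (exact p = 0.00278, adjusted 0.0222) and 0.960 in KO (exact p = 0.00417, adjusted 0.0222). Their rho was 0.943 in each (exact p = 0.0167, adjusted 0.0667). Without the 2 libraries farthest from the median of Dbp, r was 0.885 in WT and 0.913 in KO (n = 4).

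Wee1 (r = 0.945, exact p = 0.00556) and Bhlhe40 (r = 0.917, exact p = 0.00556) also tracked Dbp in WT (adjusted p = 0.0222 each, rho 0.886 and 0.943, exact p = 0.0333 and 0.0167, adjusted 0.0762 and 0.0667). Without WT libraries 1 and 6 these were r = 0.720 and 0.729 (n = 4). In KO, Wee1 had r = 0.891 (exact p = 0.0236, adjusted 0.0630) and Bhlhe40 0.496 (exact p = 0.282, adjusted 0.322), with rho of 0.771 and 0.543 (exact p = 0.103 and 0.297, adjusted 0.164 and 0.396), and r was 0.815 and 0.0546 without KO libraries 2 and 3 (n = 4). For Hlf and Dbp, r was 0.723 in WT and 0.450 in KO (exact p = 0.129 and 0.378, adjusted 0.172 and 0.403, rho 0.771 and 0.600 with exact p = 0.103 and 0.242, adjusted 0.164 and 0.352), and -0.0353 and 0.251 without the 2 libraries (n = 4). Nfil3 had a negative r with Dbp in both groups, but neither passed: -0.855 in WT (exact p = 0.0278, adjusted 0.0635) and -0.827 in KO (exact p = 0.0417, adjusted 0.0646). Its rho was -0.943 in WT and -0.829 in KO (exact p = 0.0167 and 0.0583, adjusted 0.0667 and 0.117), and r was -0.794 in WT and -0.345 in KO without the 2 libraries (n = 4). The positive r of Ciart (0.846) and Usp2 (0.846) with Dbp in WT rested on WT libraries 1 and 6, since without them r was -0.978 and -0.848 (n = 4; exact p = 0.0444 and 0.0319 over 6, adjusted 0.0646 and 0.0639, rho 0.429 and 0.486 with exact p = 0.419 and 0.356, adjusted 0.447 and 0.438). In KO, r with Dbp was 0.689 for Ciart, 0.846 for Usp2 and 0.895 for Bhlhe41 (exact p = 0.147, 0.0417 and 0.0208, adjusted 0.181, 0.0646 and 0.0630, rho 0.429, 0.886 and 0.886 with exact p = 0.419, 0.0333 and 0.0333, adjusted 0.447, 0.0762 and 0.0762). These were 0.706, 0.840 and 0.889 without KO libraries 2 and 3 (n = 4). Bhlhe41 in WT had r = 0.417 (exact p = 0.443, adjusted 0.443), rho 0.143 (exact p = 0.803, adjusted 0.803) and r = 0.776 without WT libraries 1 and 6 (n = 4). On r, 4 of the 16 relations passed after adjustment and on rho 0 did, while r was positive for 7 of 8 genes in each group.

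**Figure D3:**
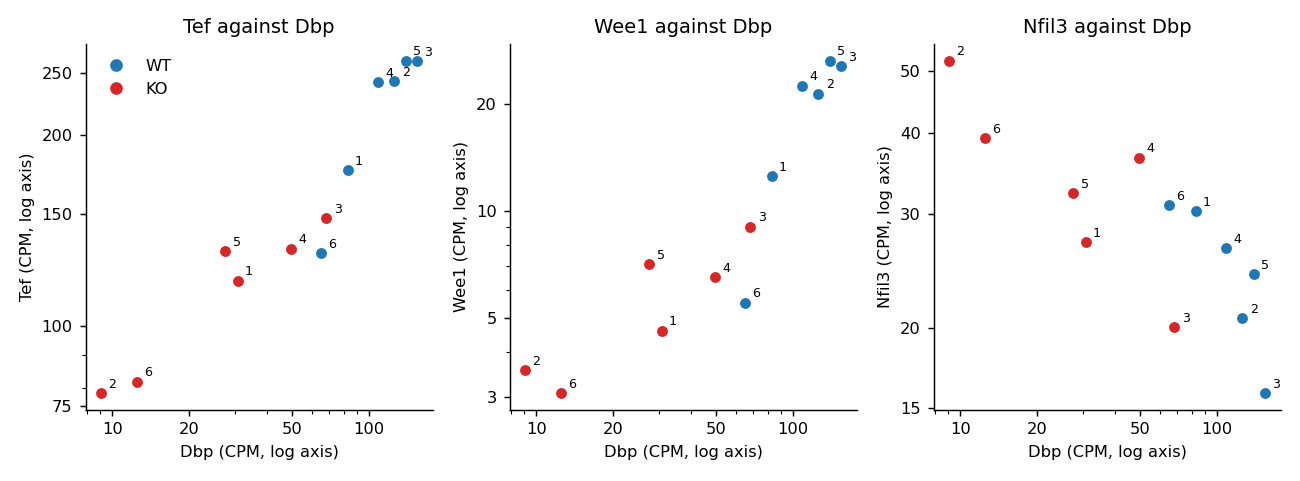
Levels of Tef, Wee1 and Nfil3 (vertical log axes, CPM) against Dbp (horizontal log axis, CPM) in WT (blue) and KO (red) libraries, numbered as in the labels. Tef and Wee1 are low where Dbp is low and Nfil3 is high there, and WT library 6 lies beside KO libraries 3 and 4 for Tef.

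Outside the 9 genes, 12872 averaged 1 CPM or more, and among them the clock repressor gene Per3 had the level pattern most like that of Dbp over the 12 libraries. The root mean square difference of their centred log2 CPM was 0.51, against a spread of 1.28 for Dbp itself. The next were Kcna2 (0.70), Folr2 (0.74), Gm8798 (0.74) and P2ry13 (0.74). Per3 was also first for Wee1 (0.42, against a spread of 1.08), followed by the thymidine kinase gene Tk1 (0.50), the xenobiotic receptor gene Nr1i3 (0.50), A930033H14Rik (0.55) and Akr1c19 (0.56). Among the 9 genes themselves, Usp2 lay nearer to Wee1 (0.32) than any of the 12872 others did. The centring was over all 12 libraries, so the difference between groups is part of both the likeness and the spread. The log2 fold change of Per3, -1.73 ± 0.45 (SE, edgeR adjusted p = 0.0646), is therefore part of that likeness and not a separate result.

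Of the other genes of the clock, Cry1, a repressor gene, rose, and it was the 1 of 18 tested that passed (5.56%, against 2.64% of all genes called in either direction). Cry1 ran from 5.73 through 6.88 to 8.05 CPM in WT and from 7.59 through 12.9 to 22.1 CPM in KO. KO library 3 alone lay inside the WT range, and the log2 fold change was 0.96 ± 0.21 (SE, edgeR adjusted p = 0.0360). The median log2 fold change of the 18 was -0.12, with 8 positive and 10 negative. The next smallest p-values were those of Cry2 (-0.62 ± 0.15), Per3 and the REV-ERB beta gene Nr1d2 (-0.53 ± 0.15; log2, SE, edgeR adjusted p = 0.0514, 0.0646 and 0.0746). The call of Cry1 held in 3 of 12 leave-outs (KO library 1 or 3, or WT library 6), with edgeR adjusted p from 0.0201 to 0.0887. Of the 18, 0 were called with KO library 2, 5 or 6 or WT library 2 to 5 removed. In these fits 0.166% to 2.08% of all genes were called. There 7 or 8 of the 18 had an unadjusted edgeR p under 0.05, as did 2519 to 3236 of the 15017 to 15038 genes tested. Cry2 alone was called with KO library 4 (2.64% of all genes) or WT library 1 (2.05%) removed. With WT library 6 removed, 7 were called (3 higher, 4 lower, 4.66% of all genes). Limma-voom called 0 of the 18 (2.51% of all genes). Of the 18, 8 had an unadjusted limma-voom p under 0.05, as did 3234 of 15000 genes.

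Among 18 liver genes known to depend on PAR bZIP factors or used as their targets, 4 fell and 0 rose (22.2%, against 1.49% of all genes called lower). The median log2 fold change of the 18 was -1.05, with 17 negative. The list was drawn up with earlier results on some of its members known, so its direction is not independent evidence. Nr1i3, which encodes the xenobiotic receptor CAR, ran from 39.1 through 72.9 to 99.5 CPM in WT and from 20.9 through 28.5 to 43.3 CPM in KO, where library 3 alone reached the WT range. Its log2 fold change was -1.28 ± 0.24 (SE, edgeR adjusted p = 0.0246), but 74.9% of its exon bases are shared with Tomm40l on the other strand, and reads of both are uncertain.

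Acot4 and Acot3, acyl-CoA thioesterase genes, fell, with log2 fold changes of -1.89 ± 0.34 and -4.001 ± 0.79 (SE, edgeR adjusted p = 0.0230 and 0.0273). Acot3 was low in KO, from 0.708 through 2.15 to 4.04 CPM, and ran from 2.10 through 19.7 to 98.2 CPM in WT. Its highest WT library exceeded the lowest by 46.9-fold, and WT library 6 (2.10 CPM) lay inside the KO range. Cyp2a5, a cytochrome P450 gene, fell by 2.44 ± 0.50 on the log2 scale (SE, edgeR adjusted p = 0.0307). Cyp2a5 ran from 134 through 609 to 1143 CPM in WT, with libraries 3 and 6 at 194 and 134 CPM, and from 59.4 through 116 to 144 CPM in KO. Acot3 and Acot4 share exon bases with 4732463B04Rik, and all 3 genes have close copies, so their reads are uncertain. The lowest WT library was number 6 for Acot3, Acot4, Cyp2a5 and Nr1i3. With KO library 6 or WT library 2 or 4 removed, 0 of the 18 were called (edgeR, 0.572%, 0.306% and 0.166% of all genes). An unadjusted edgeR p under 0.05 was reached by 11, 8 and 9 of the 18. Over all genes it was reached by 2616 of 15038, 2613 of 15025 and 2519 of 15031. With KO library 2 (1.56% of all genes) or WT library 5 (0.592%) removed, 2 of the 18 were called, and with WT library 6 removed, 7 were (4.66%).

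**Figure D4:**
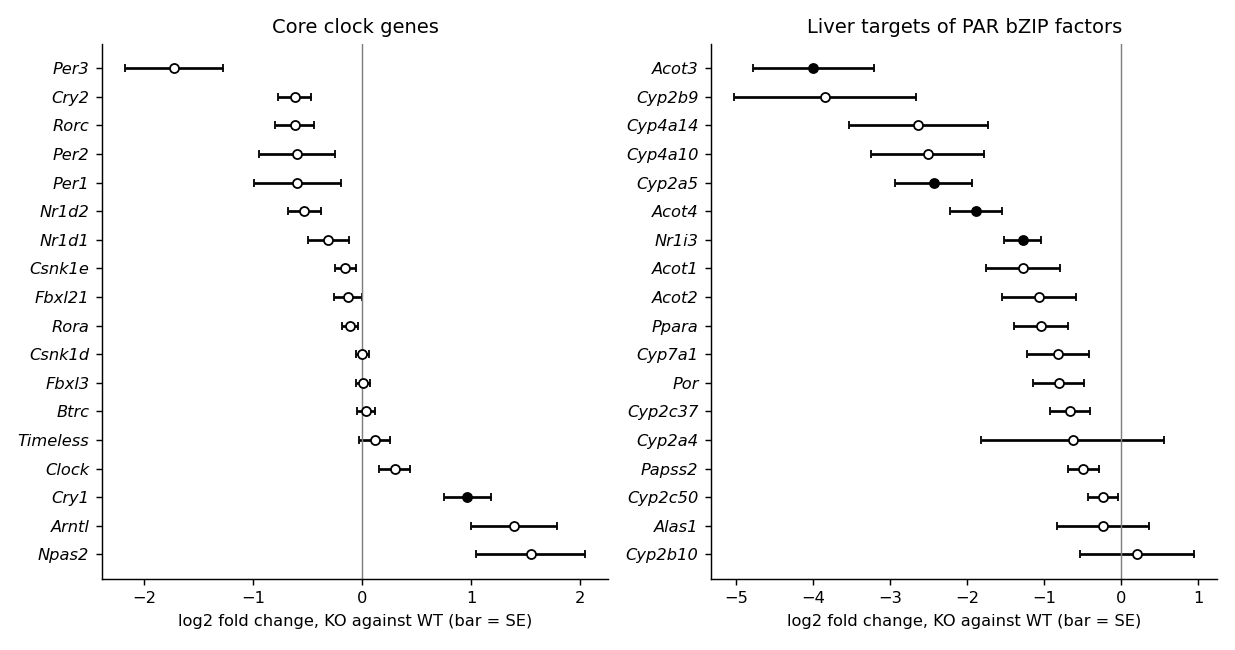
Log2 fold change of KO against WT (horizontal axes, bars show SE) for 18 core clock genes (left) and 18 liver genes listed as PAR bZIP targets (right). Circles are filled where the edgeR adjusted p was under 0.05. Cry1 is filled on the right of 0, and Acot3, Cyp2a5, Acot4 and Nr1i3 are filled on the left of 0.

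The fall of Wee1 was set beside 12 measured genes of mitotic entry, including its substrate gene Cdk1. None of the 12 was called by edgeR, DESeq2 or limma-voom (2, 2 and 1 at an unadjusted p under 0.05), and their median log2 fold change was -0.08, with 5 positive and 7 negative. Those with the smallest p were Pkmyt1, a kinase related to WEE1 (0.79 ± 0.27), Cdc25a, a phosphatase that opposes it (0.29 ± 0.13), and the proliferation genes Mki67 (-0.31 ± 0.20) and Top2a (-0.40 ± 0.28; log2, SE, edgeR adjusted p from 0.118 to 0.430). Cdk1 stood at 1.06 ± 0.587 CPM in WT and 1.29 ± 0.265 CPM in KO (SD, n = 6 each). Levels were low: 9 of the 12 passed the stricter filter of 1 CPM in 6 libraries, and the lowest count was 8 (Plk1). The absence of calls therefore does not show that these genes were unchanged. Over all genes, 3184 of 15000 by edgeR, 3423 of 15140 by DESeq2 and 3234 of 15000 by limma-voom had an unadjusted p under 0.05.

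Total counts ran from 30348123 to 40828767 per library in WT and from 34121087 to 37973022 in KO (exact permutation test of the difference in means, p = 0.742). Hepatocyte markers (7 of 8 tested) summed to between 66590 and 97184 CPM in WT and between 69552 and 94077 CPM in KO, with none called by edgeR. Macrophage markers were lower in KO: 3 of 10 fell (Adgre1, Cd5l and Vsig4), against 1.49% of all genes, and 10 of 10 were negative. The macrophage sum ran from 294 to 469 CPM in WT and from 170.1 to 335 CPM in KO. Of the T and NK cell markers 1 of 3 tested fell (Lck), with sums of 1.25 to 2.14 CPM in WT and 0.701 to 1.44 CPM in KO. None passed among markers of B cells (4 tested, median log2 fold change -0.64), sinusoidal endothelium (6, -0.15), stellate cells (5, 0.12), cholangiocytes (4, 0.50) or skeletal muscle (5, -1.16), and 0 of 4 adipocyte markers were tested. Fold changes were negative for 4 of 7 hepatocyte, 1 of 5 stellate cell and 0 of 4 cholangiocyte markers, and for every tested marker of the other types. The part of macrophage content in the falls of Tef, Hlf and Wee1, and in those of the PAR bZIP targets, was not tested.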

How the data were processed

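Liver mRNA (polyA-selected) was sequenced in 12 libraries, grouped as KO or WT by their titles. The deposited table gives raw read counts (whole numbers) for each gene and library, per the file headers. Beside them stand the authors' log2 fold change, p-value and adjusted p-value under DESeq2 column names, per the file headers. The submitters' processing notes name, without versions, the build GRCm38 and the tools HISAT2, featureCounts, DESeq2, Trimmomatic, FastQC and SAMtools. The annotation release and strand setting are not stated in the labels, so reads of overlapping genes cannot be told apart. Of 15344 rows, 204 repeated a gene with the same counts and were left out.

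All 12 libraries were fitted with edgeR 4.0.16 (R 4.3.3; quasi-likelihood F test, robust, TMM scaling, filterByExpr), which kept 15000 of 15140 genes. P-values are two-sided and were adjusted by Benjamini-Hochberg over all tested genes, with a threshold of 0.05. The SE is the absolute log2 fold change divided by the square root of F. The fit was checked on simulated counts. Log2 CPM used a prior count of 2. Exon lengths and positions came from GENCODE M21 (GRCm38). No library was a copy of another of its group: the 30 within-group pairs, the only pairs compared, gave a chi-square over degrees of freedom of 38.0 to 242.

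The members and lists (core clock, PAR bZIP targets, mitotic entry and cell type markers) were chosen with earlier results of these data known. The text names all 9 members, the called genes of each list or, with fewer than 4, those with the smallest p up to 4, and the 5 genes most like Dbp and Wee1 in pattern. Cdk1 was named after its values were seen. Alternatives were DESeq2 1.42.0, limma-voom 3.58.1 with and without library weights, RLE or total-count scaling, a stricter filter (1 CPM or more in 6 libraries) or none, 1 surrogate variable (sva 3.50.0), a replicate block and each library left out.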

Additional observations from a re-analysis of the deposited data

Results flagged for a closer look

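Of 42 groups of 6 libraries examined (21 genes in KO and in WT), a single group had a library far outside the others, and about 2.1 such groups would arise by chance. This was Bhlhe41 in WT, where library 3 stood at 3.96 log2 CPM and the other 5 at 2.20 to 2.49. The gap to the nearest library was 0.833 of the range of the group. The same library also held the highest WT values of Dbp, Hlf and Bhlhe40.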

How the results depend on the processing

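Each of the 9 clock output genes kept the sign of its fold change in all 9 other settings and with each library left out. Of the 9, 7 were called with DESeq2, 6 with at least 1 CPM in 6 libraries, 4 with limma-voom and library weights, and 3 in the other settings apart from the replicate block. Over all genes the count was 1232 with DESeq2 (8.47%), 889 with library weights (5.93%) and 257 with total counts only (1.71%). The count was 432 (3.36%) with at least 1 CPM in 6 libraries and 377 (2.51%) with limma-voom. For core clock genes it was 7 with DESeq2, 6 with library weights, 2 with at least 1 CPM in 6 libraries and 0 with limma-voom (8 at an unadjusted p under 0.05), and for PAR bZIP targets it was 8 with DESeq2. With each library left out, the counts ran from 25 to 700 over all genes, from 0 to 6 for the 9 genes, from 0 to 7 for core clock genes and from 0 to 7 for PAR bZIP targets, and the count for mitotic entry genes was 0 throughout (edgeR, 1 to 3 at an unadjusted p under 0.05). The replicate block called 374 genes (2.49% of all tested), 6 of the 9 (Tef, Hlf, Ciart, Usp2, Wee1 and Bhlhe41), 5 core clock genes, 3 PAR bZIP targets and 0 mitotic entry genes (1 at an unadjusted p under 0.05). Under it the edgeR adjusted p was 0.0116 for Ciart, 0.0475 for Usp2 and 0.0457 for Bhlhe41. The labels do not say what libraries with the same number share. The correlation of their deviations from the group means was over 0.1 in 4 of 6 pairs and ran from -0.235 to 0.425, so the numbers were not taken as a pairing, and 1 of 6 KO libraries correlated best with its own number. By gene, library 3 was the highest of both groups for Dbp, Bhlhe40 and Bhlhe41 and the lowest of both for Nfil3. Library 6 was the lowest of both groups for Ciart, Usp2 and Wee1. No other lowest or highest library of the 9 genes had the same number in both groups. The cause of this shared order and of the differences between settings was not tested. The lowest count of any of the 9 genes in any library was 22 (Bhlhe41), and the part of depth in the calls was not tested.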
